A study of Mus musculus with 8 samples.

Results

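The comparison set pools of Arc-dVenus+ neurons from mice that received footshocks alone against bulk tissue of the same cortical area from mice treated the same way. It used 4 of the 8 libraries of the series: 2 pools of manually sorted cells (30 and 33 cells, here the pool of 30 and the pool of 33) and 2 bulk tissue libraries (bulk library 1 and 2). Both sides came from the temporal association cortex (TeA) of C57BL/6 males, heterozygous for the Arc-dVenus transgene, aged P60 to P90 and killed 6 h after behavior, and all mice had been habituated to the chamber. The shock-only protocol delivered 7 footshocks of 1 s and 0.5 mA, at intervals of 20 to 180 s and without tones. The other 4 libraries came from mice given fear conditioning (FC), in which 7 tones of 10 s and 6 kHz were paired with the same shocks: pools of 39, 40 and 23 cells and 1 bulk tissue library.

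In these mice the promoter of Arc drives a destabilized Venus fluorescent protein, so a cell is bright when its Arc promoter was active within the preceding hours. The sorted cells were therefore chosen on the promoter of a gene that is itself measured here. Fluorescent cells were aspirated one by one after protease treatment, and the bulk tissue was treated with protease in the same way. Each pool and each bulk library came from 1 animal, so the spread between pools holds animal, cell choice and amplification together. The sources used here do not state the number of cells per pool in one way, and 30 and 33 follow the library names. In bulk tissue, fewer cells of a type and less RNA per cell cannot be told apart, and this holds for every comparison below.

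Arc encodes a cytoskeletal protein of the postsynaptic side that is transcribed and translated soon after strong synaptic activity. It belongs to the immediate-early genes, whose transcription starts without new protein synthesis. Many of these, such as the Fos, Egr and Nr4a families and Npas4, encode transcription factors. They act on slower effector genes that encode secreted factors, synaptic organizers and signaling brakes, such as Bdnf, Nptx2, Inhba and Rgs2. In cortex this program is known best in glutamatergic neurons, and bulk cortex also holds GABAergic interneurons, glia and vessel cells.

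All genes with a summed CPM (gene counts scaled to a common library total) of at least 20 over the 8 libraries were members, 12493 of the 15437 genes in the table. The gene just inside this limit was She, with a summed CPM of 20.0, and the gene just outside was Fcgbp, with 19.97. Gene counts summed to 24151755 in the pool of 30, 10223586 in the pool of 33, 9846374 in bulk library 1 and 7110598 in bulk library 2. Of the members, 559 and 768 had no count in the pools of 30 and 33, against 7 and 8 in the bulk libraries. Levels below are CPM scaled by TMM (trimmed mean of M-values) factors over the 4 libraries, and pairs of values are in the order pool of 30, pool of 33, bulk library 1, bulk library 2. A count of 3, taken as the detection floor, corresponds to 0.136 CPM in the pool of 30 and 0.339 CPM in the pool of 33. Intervals and floors cover counting error only, because amplified reads without molecular identifiers are not independent molecules.

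With 2 libraries a side, the quasi-likelihood test of edgeR called no gene at an adjusted p under 0.05 and a 2-fold change (0% of members higher and 0% lower). At an unadjusted p under 0.05 there were 3007 genes, 1431 higher and 1576 lower in the pools. The smallest adjusted p was 0.0598, shared by 4 genes, among them Dio2, Glul and Qk. A total of 1144 genes had an adjusted p under 0.1, of which 379 were over 2-fold higher and 704 over 2-fold lower. Other tests gave other counts: DESeq2 called 751 genes higher and 1025 lower, the edgeR exact test 608 and 1032, and limma voom 107 and 488. When all 8 libraries shared one estimate of the spread, edgeR called 198 genes higher (1.58%) and 269 lower (2.15%). Leaving out bulk library 1 or 2 gave 13 and 17 calls higher and 88 and 72 lower. Leaving out the pool of 30 or the pool of 33 gave 2195 and 2132 higher and 3996 and 3895 lower, and there the lone pool was assumed to vary like the bulk libraries. An exact permutation test of a single gene in 2 against 2 libraries cannot go below p = 0.333.

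The results are therefore given as levels, and as counts of genes past a two-pool rule that involves no test. A gene passed as higher when the lower pool was at least 2 times the higher bulk library, and as lower when the higher pool was at most 0.5 times the lower bulk library. The rule held for 494 genes higher (3.95% of members) and 2045 lower (16.4%), and these shares are the background for the counts of every list below. They varied with mean bulk level, and the lists were not matched for level. Some genes are on more than 1 list, so the lists are not separate evidence. The shares lower were 18.8% under 5 CPM, 24.6% at 5 to 20 CPM, 11.6% at 20 to 100 CPM and 9.18% at 100 CPM and over. The shares higher were 5.04%, 2.96%, 3.90% and 5.69% in the same order. A gene low in bulk tissue could become a member through its level in the pools, which bears on the lowest bin. With scaling by library size alone the rule held for 227 and 2563 genes, so the share of higher genes among those passing went from 19.5% to 8.14%. That scaling moved the median log2 fold change of all members from 0.05 to -0.29, a shift of -0.34. With the pool of 30 left out the counts were 1898 higher and 3781 lower, and with the pool of 33 left out 1827 and 3684. Without regard to size, both pools lay above both bulk libraries for 3204 genes (25.6%) and below both for 4064 (32.5%). In the fit to 8 libraries, 157 of the 198 genes called higher and 264 of the 269 called lower were past the two-pool rule in the same direction.

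The 2 pools differed from each other far more than the 2 bulk libraries did. A total of 5490 genes (43.9%) were over 2-fold apart between the pools, against 62 genes (0.496%) between the bulk libraries. The median fold between libraries was 1.80 for the pools and 1.13 for bulk tissue. Across genes, the log2 ratio of each pool to mean bulk (pseudocount 1 CPM) gave a Pearson r of 0.437 and a Spearman rho of 0.383 between the pools, and 64.3% of genes had the same sign in both. Genes are not independent replicates, and both ratios share the same bulk values, so r is a description. With a different bulk library for each pool r was 0.424.

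**Figure D1:**
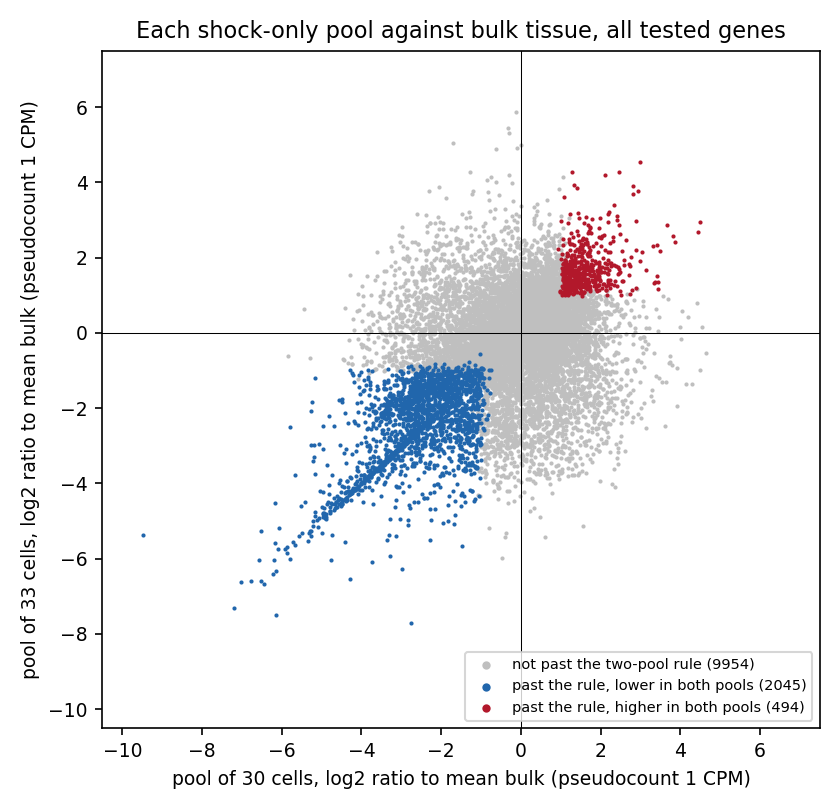
Each point is 1 of 12493 genes, with its log2 ratio of scaled CPM to the mean of the bulk libraries (pseudocount 1 CPM) in the pool of 30 (x axis) and in the pool of 33 (y axis). The 494 genes past the two-pool rule as higher are red, the 2045 past it as lower are blue and the remaining 9954 are grey, many of them in the quadrants where the pools disagree.

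The disagreement was smaller at higher levels in bulk tissue. Among 1072 genes under 5 CPM in mean bulk, 65.5% were over 2-fold apart between the pools and r was 0.00582. Among 4359 genes of 5 to 20 CPM the values were 56.2% and 0.324. Among 5057 genes of 20 to 100 CPM they were 39.3% and 0.541, and among 2005 genes of 100 CPM and over they were 17.6% and 0.798. A gene of high bulk level therefore had a similar ratio in both pools more often than one of low level. Members needed a summed CPM of at least 20 over the 8 libraries, pools included. Genes low in bulk tissue could thus enter through high pools. Such entry favors differences between the pools in the lowest bin, and its part was not tested. Of all members, 317 had no count in the pool of 30 alone, 526 had none in the pool of 33 alone and 242 had none in either. The pool of 33 also had the lower total count, and the part of depth in these numbers was not tested.

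**Figure D2:**
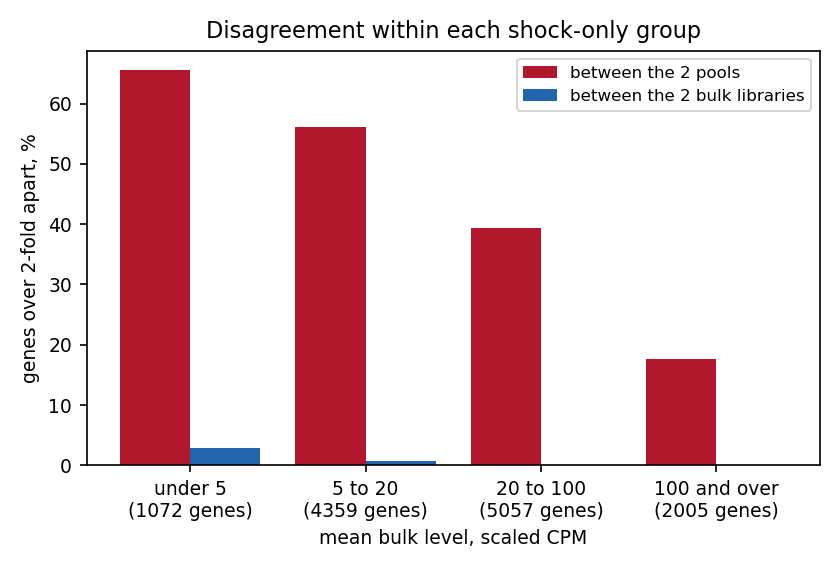
Share of genes over 2-fold apart between the 2 pools (red) and between the 2 bulk libraries (blue), by the mean bulk level of the gene in scaled CPM, with the number of genes under each bin. The share for the pools went from 65.5% in the lowest bin to 17.6% in the highest, and for bulk tissue it was between 0.0395% and 2.89%.

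Among genes past the rule as higher whose pools averaged 50 CPM or more, the largest fold was that of Inhba, which encodes the beta A subunit of activin and inhibin (mm9 chromosome 13, 16103684 to 16119044). Its level was 167 and 494 CPM against 16.02 and 24.2 CPM (log2 fold change 4.04 with a standard error of 0.67, adjusted p = 0.0869 by edgeR; the standard error is written SE below). Both pools were above both bulk libraries, and the pools themselves were 2.96-fold apart. The SE values here and below were worked back from the edgeR test and are not a separate estimate of spread. Nr4a2, an orphan nuclear receptor of the immediate-early class (chromosome 2, 56959241 to 56976414), had the same log2 fold change, with 281 and 94.8 CPM against 11.3 and 11.6 CPM (log2 fold change 4.04 with a standard error of 0.65, adjusted p = 0.0869). Here the pool of 30 was the higher one. Nptx2, a secreted pentraxin that clusters AMPA receptors (chromosome 5, 145306756 to 145318347), was at 131 and 234 CPM against 16.02 and 16.1 CPM (log2 fold change 3.50 with a standard error of 0.40, adjusted p = 0.0869).

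Other leading genes encode kinases, enzymes and secreted factors. Camk1g, a calcium/calmodulin-dependent kinase (chromosome 1, 195172540 to 195196491), had 113 and 207 CPM against 16.02 and 14.3 CPM (log2 fold change 3.40, SE 0.42). Bdnf, the neurotrophin that signals through TrkB, had 138 and 288 CPM against 29.1 and 23.97 CPM (log2 fold change 3.003, SE 0.46). Ptgs2, the inducible cyclooxygenase, had 187 and 370.4 CPM against 40.4 and 38.2 CPM (log2 fold change 2.83, SE 0.42). In all 3 genes the pool of 33 was the higher pool, and each pool was at least 4 times either bulk library. Fosb, a partner of Jun proteins in AP-1, had 172 and 69.4 CPM against 14.3 and 14.8 CPM (log2 fold change 3.06, SE 0.56), and Pcp4, a calmodulin-binding peptide, had 202 and 100.0 CPM against 17.4 and 21.2 CPM (log2 fold change 2.97, SE 0.46), both with the pool of 30 higher. Gins4, a subunit of the GINS complex of DNA replication, had nearly the same level in both pools, 109 and 115 CPM against 12.4 and 15.3 CPM (log2 fold change 3.02, SE 0.31).

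Each of these genes had an adjusted p of 0.0869 in the fit to the 4 libraries. In the fit to all 8 libraries the adjusted p was 0.0125 for Nptx2, 0.0143 for Inhba, 0.0143 for Ptgs2, 0.0157 for Bdnf and 0.0359 for Camk1g. It was 0.0704 for Nr4a2, 0.125 for Fosb, 0.245 for Gins4 and 0.311 for Pcp4, so those 4 did not pass there either. The remaining 3 of the 12 leading genes were Car12, Igtp and Myst1. Car12, a membrane carbonic anhydrase, was at 33.9 and 74.5 CPM against 3.85 and 4.16 CPM. Igtp, an interferon-induced GTPase, was at 12.7 and 108 CPM against 4.30 and 4.92 CPM, and Myst1, a histone acetyltransferase, at 101 and 23.03 CPM against 8.50 and 8.20 CPM. In the last 2 genes the pools were 8.56-fold and 4.37-fold apart, so their fold change rests more on 1 pool than on the other. Both Car12 and Igtp were low in bulk tissue, so high levels in the pools helped make them members.

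Of the 18 immediate-early transcription factors measured, 4 were past the two-pool rule as higher (background 3.95%) and 2 as lower (background 16.4%). The median log2 ratio of the list to bulk was 0.67 in the pool of 30 and 0.16 in the pool of 33, against -0.09 and -0.16 for all members. The 4 higher genes were Nr4a2, Fosb, Egr3 and Fosl2. Egr3, a zinc-finger factor, was at 162 and 230.0 CPM against 35.1 and 44.02 CPM (log2 fold change 2.31, SE 0.31), with the pools well above bulk tissue. Fosl2, another Fos family member, was at 141 and 140.3 CPM against 47.3 and 39.2 CPM (log2 fold change 1.70, SE 0.25), nearly equal in both pools. Egr1, the best known of the Egr family, was at 387 and 281 CPM against 224 and 275 CPM (log2 fold change 0.42 with a standard error of 0.25, adjusted p = 0.401), so the pool of 33 was hardly above bulk library 2. Fos itself was split: 44.2 CPM in the pool of 30, 0.226 CPM in the pool of 33 and 15.2 and 14.1 CPM in bulk tissue. Npas4, a factor specific to neurons, was split in the same direction, with 246 and 15.6 CPM against 39.6 and 50.5 CPM. The 2 genes past the rule as lower were Nr4a3, at 0.0908 and 0.903 CPM against 5.55 and 3.03 CPM, and the antiproliferative factor Btg2, at 10.1 and 1.58 CPM against 35.8 and 32.7 CPM. The transcription factors of this program thus differed among themselves and between the pools.

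Among the activity-regulated effectors nearly all of the larger differences were in one direction. Of 33 measured, 15 were past the two-pool rule as higher (background 3.95%) and 2 as lower (background 16.4%), and the median log2 ratio was 1.32 and 1.16 in the 2 pools. The list, the 15 genes and the medians include Arc, which is itself an immediate-early gene. Arc, whose promoter defined the sort, was at 969 and 529.8 CPM against 139 and 155 CPM (log2 fold change 2.35 with a standard error of 0.36, adjusted p = 0.0869; adjusted p = 0.0259 in the fit to 8 libraries), so the transcript of the reporter's gene was higher in both pools, which checks the label and is not a finding. Sorcs3, a sorting receptor of the Vps10 family, was at 309 and 275 CPM against 54.1 and 43.3 CPM (log2 fold change 2.58, SE 0.24). Rgs2, which speeds the turn-off of G protein signaling, was at 335 and 471 CPM against 88.6 and 90.2 CPM (log2 fold change 2.17, SE 0.25). Rasgrp1, a calcium- and diacylglycerol-dependent activator of Ras, was the most abundant effector of the pools at 1563 and 1263 CPM against 421 and 385 CPM (log2 fold change 1.81, SE 0.19). For these 3 genes the pools were within 1.5-fold of each other.

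Nrn1 (neuritin), a membrane-anchored neurite-promoting protein, was at 601 and 588 CPM against 221 and 212 CPM (log2 fold change 1.46, SE 0.17). Plk2, a kinase that remodels synapses, was at 432 and 449 CPM against 196 and 204 CPM (log2 fold change 1.14, SE 0.17). Homer1, a scaffold of metabotropic glutamate receptors, was at 334 and 318 CPM against 157 and 152 CPM (log2 fold change 1.08, SE 0.18). The 2 pools were nearly equal in each. Acan, the aggrecan core protein of perineuronal nets, and Cdkn1a, the p21 cell cycle inhibitor, were also past the rule at 16.98 and 62.7 CPM against 2.42 and 2.14 CPM and 54.1 and 91.8 CPM against 7.52 and 14.8 CPM. The 2 effectors lower in both pools were Spry4, with no count in either pool and 9.57 and 14.00 CPM in bulk tissue, and Sik1, at 0 and 0.452 CPM against 6.80 and 4.67 CPM. Spry4 encodes a feedback inhibitor of ERK signaling and Sik1 a salt-inducible kinase. Some effectors were split between the pools: Dusp6, a phosphatase of ERK, was at 231 and 31.3 CPM against 33.7 and 30.9 CPM, and the kinase Pim1 at 39.1 and 2.26 CPM against 0.626 and 1.14 CPM. Nptx1 and Rgs4, close relatives of Nptx2 and Rgs2, had 379.7 and 153 CPM against 251 and 272 CPM and 784 and 429 CPM against 579.8 and 633 CPM, with overlap between the pools and bulk tissue.

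**Figure D3:**
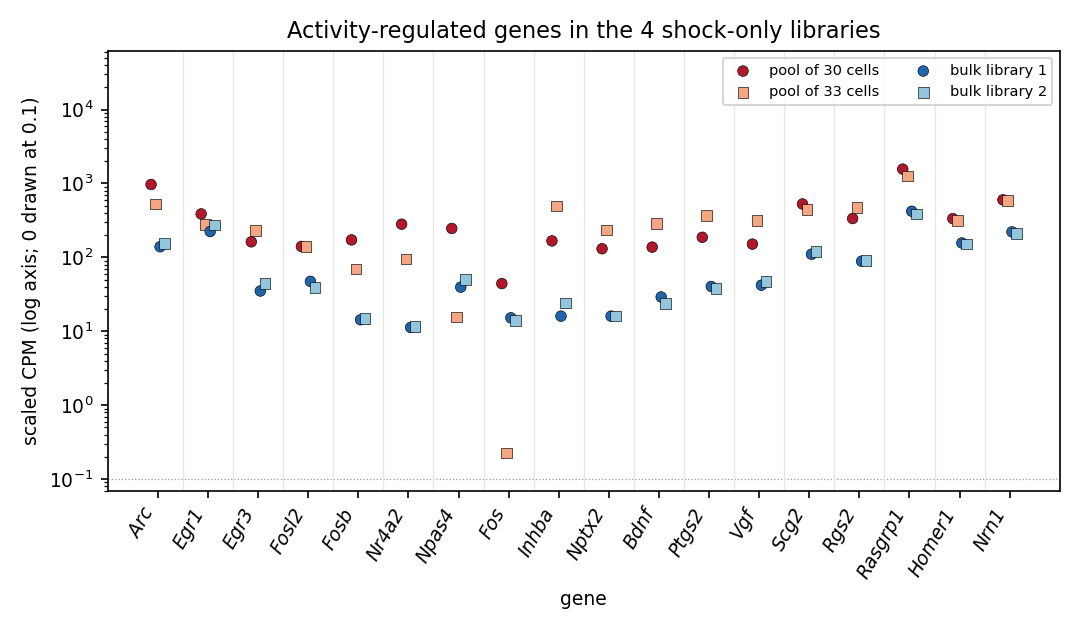
Scaled CPM (log axis) of 18 activity-regulated genes in the pools of 30 (red circles) and 33 cells (orange squares) and in the 2 bulk libraries (blue). From Inhba to Nrn1 both pools lie above both bulk libraries, while Fos and Npas4 lie above bulk tissue in the pool of 30 only, at 44.2 and 246 CPM.

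Several secreted peptides of the regulated pathway were higher in both pools. Scg2 (secretogranin II) was at 528 and 441 CPM against 110.3 and 119.8 CPM (log2 fold change 2.07, SE 0.20), Chgb (chromogranin B) at 1452 and 2053 CPM against 333 and 492 CPM (log2 fold change 2.09, SE 0.30) and the neuropeptide precursor Vgf at 151 and 313 CPM against 42.1 and 47.3 CPM (log2 fold change 2.38, SE 0.44). These were the 3 of 20 genes for granins, prohormone processing and neuropeptides past the rule as higher. Scg2 and Vgf were also counted among the activity-regulated effectors above. The 4 past it as lower were Sst, Npy, Vip and Tac2, peptides of interneurons. Cck, which excitatory cells also transcribe, was at 1645 and 1096 CPM against 468 and 563 CPM (log2 fold change 1.41, SE 0.27). Cpe, a carboxypeptidase of the same granules, had the opposite order at 623 and 376 CPM against 743 and 803 CPM, and Scg3 overlapped with bulk tissue at 76.6 and 189 CPM against 178 and 199.7 CPM. The convertases and their partners Pcsk2 and Pam were above bulk tissue in both pools at 750.3 and 532 CPM against 456 and 454 CPM and 362 and 218 CPM against 128 and 138 CPM, below the 2-fold limit.

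Promoter windows of these genes from RefSeq (GRCm38.p6, not the mm9 of the counts) were searched for the cAMP response element that CREB is known to bind, in its full form TGACGTCA and as the half-site TGACG or CGTCA. Windows ran from 250 bases before to 50 bases after each start and were read on both strands, and a full site counts as 2 overlapping half-sites. Of the 19 activity-regulated genes higher in both pools, 14 had a window, and Scg2 and Plk2 held a full site. Of the 22 windows of these 14 genes, 8 (36.4%) held a half-site. A half-site was present in 30.3% of 11364 windows of tested genes, in 30.4% of 431 windows of genes higher in both pools and in 23.6% of 1874 windows of genes lower in both pools. Over all 32851 windows the share was 20.8%. The share in genes higher in both pools was thus nearly that of tested genes. A full site was in 3.04%, 2.55%, 1.76% and 1.79% of these windows, in the same order. The 250 bases before the start are shown for 4 genes with matches, chosen after the matches were seen, because they place the element beside genes whose levels are given above. Capitals mark TGACG or CGTCA, and all 4 are on the minus strand, at chr2:57124004-57124253 for Nr4a2, chr7:19310046-19310295 for Fosb, chr1:79440027-79440276 for Scg2 and chr1:144004150-144004399 for Rgs2.
Nr4a2: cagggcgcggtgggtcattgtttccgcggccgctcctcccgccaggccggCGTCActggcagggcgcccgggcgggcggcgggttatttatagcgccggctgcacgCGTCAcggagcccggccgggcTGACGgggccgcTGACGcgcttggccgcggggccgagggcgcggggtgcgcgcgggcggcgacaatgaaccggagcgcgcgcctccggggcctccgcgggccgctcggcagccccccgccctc
Fosb: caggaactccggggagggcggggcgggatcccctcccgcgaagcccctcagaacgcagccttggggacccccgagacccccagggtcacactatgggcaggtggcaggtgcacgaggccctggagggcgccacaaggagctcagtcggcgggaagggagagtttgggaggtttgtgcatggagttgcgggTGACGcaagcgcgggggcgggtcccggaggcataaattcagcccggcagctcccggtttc
Scg2: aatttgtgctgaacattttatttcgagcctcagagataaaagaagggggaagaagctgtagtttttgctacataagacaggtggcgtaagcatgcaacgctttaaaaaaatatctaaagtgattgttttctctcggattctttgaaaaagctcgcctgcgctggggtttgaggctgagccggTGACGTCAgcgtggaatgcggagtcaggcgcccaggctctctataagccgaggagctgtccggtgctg
Rgs2: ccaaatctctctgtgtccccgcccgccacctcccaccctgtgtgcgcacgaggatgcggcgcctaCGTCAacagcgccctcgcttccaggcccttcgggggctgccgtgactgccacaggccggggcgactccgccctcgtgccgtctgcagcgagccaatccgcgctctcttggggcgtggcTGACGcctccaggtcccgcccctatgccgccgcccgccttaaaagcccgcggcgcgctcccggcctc
The matches began 200, 144, 123 and 111 bases before the start in Nr4a2, 60 in Fosb, 68 and 65 in Scg2 and 185 and 67 in Rgs2. In Scg2 the 2 half-sites form 1 full element. A match is a description of the letters in the window, and binding was not measured.

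Most genes of excitatory neurons were higher in the pools, by smaller folds than the leading effectors. Both pools were above both bulk libraries for 10 of 17 pan-excitatory genes and below for 1, and for 16 and 0 of 20 pan-neuronal genes (backgrounds 25.6% and 32.5%). Slc17a7, the vesicular glutamate transporter VGLUT1 of cortical excitatory cells, was at 886 and 1068 CPM against 405 and 463 CPM (log2 fold change 1.17, SE 0.19). Both pools were above both bulk libraries, under the 2-fold limit of the rule. Of 17 pan-excitatory genes, 4 were past the rule as higher and 0 as lower: Lmo4, a LIM-domain transcriptional regulator, Arpp21, a regulator of calmodulin signaling, Sv2b, a vesicle protein, and Kcnv1, a modifier subunit of potassium channels. Lmo4 was at 649 and 734 CPM against 217 and 191 CPM (log2 fold change 1.76, SE 0.19) and Sv2b at 2286 and 1953 CPM against 794 and 819 CPM (log2 fold change 1.39, SE 0.16). Camk2a, the main kinase of the excitatory postsynapse, had the opposite order with 3549.8 and 3474 CPM against 5254 and 6076 CPM (log2 fold change -0.69, SE 0.14). Summed over the pan-excitatory list, levels were 14850.1 and 13966 CPM in the pools against 10656 and 11634 CPM in bulk tissue. For 20 pan-neuronal genes the sums were 25991 and 24904 against 11540.1 and 12407 CPM, with 4 past the rule as higher and 0 as lower. Among these was Vsnl1, a neuronal calcium sensor, at 3352 and 3396 CPM against 957 and 1042 CPM (log2 fold change 1.75, SE 0.14).

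Markers of the cortical layers did not give one answer for both pools. Of 12 L2/3 markers, 3 were past the rule as higher, namely Inhba, Ptgs2 and Wfs1, an endoplasmic reticulum protein of superficial layers, at 619.8 and 1062 CPM against 220.1 and 219 CPM (log2 fold change 1.94, SE 0.32). Inhba and Ptgs2 were also counted among the activity-regulated effectors above, in cells sorted on an activity reporter. The L2/3 list had median log2 ratios of 0.91 and 0.70. Of 5 L4 markers none passed in either direction, and the medians were 0.53 in the pool of 30 and -2.29 in the pool of 33. Rorb, the nuclear receptor that marks L4, was at 52.4 and 1.69 CPM against 52.5 and 54.1 CPM, so the pool of 30 equalled bulk tissue and the pool of 33 was far under it. Of 14 L5 markers 1 was past the rule as higher (Pcp4) and 2 as lower (Bcl11b and Npr3), with medians of -0.31 and 0.95. Etv1, a factor of L5 neurons, was at 51.8 and 166 CPM against 43.2 and 46.8 CPM. Fezf2, which specifies subcerebral neurons, had no count in the pool of 30 and 27.1 CPM in the pool of 33, against 2.33 and 3.91 CPM in bulk tissue. Bcl11b (CTIP2), another subcerebral factor, was low in both at 0.318 and 3.84 CPM against 17.99 and 18.9 CPM. Of 5 L6 markers 2 were past the rule as higher (Car12 and Nr4a2) and 1 as lower (Cplx3), with medians of 1.85 and -1.45. Nr4a2 was also counted among the immediate-early transcription factors, so it is not separate evidence on layers. The L4 and L6 medians were above 0 in the pool of 30 and below 0 in the pool of 33, and the L5 median was the reverse. With each pool alone in the fit the list medians were -3.16 without the pool of 30 and 0.53 without the pool of 33 for L4, 1.05 and -0.37 for L5, and -1.66 and 1.95 for L6.

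Inhibitory neuron markers were past the rule as lower for 14 of 16 genes (background 16.4%) and as higher for 0, and 1 gene, Cck, was above both bulk libraries in both pools without passing. The median log2 ratio was -4.53 and -4.08. Gad1, which makes GABA, had 3 counts over both pools, 0.136 and 0 CPM, against 89.8 and 76.9 CPM. Its level in bulk tissue was 869.8 (95% counting interval 297 to 4222) times that in the pools. Gad2, the other GABA-synthesizing enzyme, remained detectable, at 35.2 and 46.9 CPM against 339.9 and 349 CPM (log2 fold change -3.07, SE 0.25). Sst, Npy, Vip and Pvalb, which label interneuron classes, were each at 0.339 CPM or less in both pools. Dlx1, a homeobox factor of interneurons, and Crhbp, a binding protein of corticotropin-releasing hormone, had no count in either pool. Nos1, the other gene not past the rule, was at 5.95 and 52.8 CPM against 13.7 and 17.2 CPM, above bulk tissue in the pool of 33 alone. Over all 16 genes the summed level was 1732 and 1244 CPM in the pools against 1595 and 1678 CPM in bulk tissue. Most of the sum in the pools came from Cck. Leaving out Cck, the summed level of the list was 86.9 and 148 CPM in the pools against 1128 and 1115 CPM in bulk tissue.

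Markers of the non-neuronal cells of cortex were lower in both pools nearly throughout: 59 of 68 genes in 8 lists were past the two-pool rule as lower and 0 as higher. Among them were 15 of 16 astrocyte markers, a list with median log2 ratios of -4.19 and -4.75. Glul, glutamine synthetase, was at 87.1 and 78.3 CPM against 1503 and 1365 CPM (log2 fold change -4.12 with a standard error of 0.18, adjusted p = 0.0598). Slc1a3, the glutamate transporter GLAST, was at 2.59 and 7.56 CPM against 326 and 327 CPM (log2 fold change -6.05, SE 0.66), and the water channel Aqp4 at 4.81 and 0.226 CPM against 107 and 118 CPM (log2 fold change -5.40, SE 1.33). Slc1a2, the glutamate transporter GLT-1, kept a much higher level in the pools, 1555 and 1402 CPM against 6176 and 5838 CPM (log2 fold change -2.02, SE 0.14). Over all 16 astrocyte markers the sum was 1894 and 1602 CPM in the pools against 9251 and 8800 CPM in bulk tissue. Without Slc1a2 the summed astrocyte level was 339 and 199.8 CPM in the pools and 3075 and 2963 CPM in bulk tissue. Mlc1, a membrane protein of astrocyte endfeet, had no count in either pool and 63.7 and 50.6 CPM in bulk tissue, which makes it at least 599.8-fold lower over both pools. Slc4a4, a bicarbonate cotransporter, was the only astrocyte gene short of the rule, at 163 and 72.3 CPM against 249.6 and 219 CPM (log2 fold change -0.99, SE 0.45).

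Many of the genes of largest fold among those past the rule as lower whose bulk libraries averaged 50 CPM or more are known from astrocytes, vessels or meninges. Dio2, the deiodinase that activates thyroid hormone and is made by astrocytes, was at 0.227 and 0.113 CPM against 172 and 183 CPM (log2 fold change -9.81 with a standard error of 0.44, adjusted p = 0.0598). Igf2, a growth factor of meninges and vessels, had 1 count over both pools, and its bulk level was 2936 (95% counting interval 526 to 116029.5) times that in the pools. Ppap2b, a lipid phosphate phosphatase, and S1pr1, a sphingosine-1-phosphate receptor, were at 0.0908 and 0.226 CPM against 117 and 117 CPM and 0.182 and 0 CPM against 101 and 103 CPM. Fn1 (fibronectin), Bcan (brevican), the glial adhesion protein Hepacam and the semaphorin receptor Plxnb1 each had 1 count, in the pool of 33, against 68.3, 58.4, 44.7 and 52.8 CPM in bulk library 1. Gpr37l1, an orphan receptor of glia, had 0.136 and 0 CPM against 77.9 and 79.97 CPM, and Zcchc24, a zinc-finger protein, 0.182 and 0 CPM against 63.98 and 64.1 CPM. Gad1, an interneuron gene given above, also passed as lower, with a log2 fold change of -9.70. Qk, an RNA-binding protein of glia, had a smaller fold (log2 fold change -5.65) than the other genes of this paragraph. It was at 7.45 and 8.58 CPM against 439.8 and 365 CPM, with the 2 pools close to each other.

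Oligodendrocyte markers were past the rule as lower for 8 of 8 genes. Mbp, myelin basic protein, was at 12.03 and 25.6 CPM against 88.9 and 94.1 CPM (log2 fold change -2.28, SE 0.49). The summed level was 39.5 and 76.7 CPM in the pools against 370.0 and 360.2 CPM, with Cldn11 at 0 in both pools. Of 8 precursor markers 5 were past the rule as lower. Among the rest, Pcdh15 was higher in both pools, 55.1 and 48.5 CPM against 26.7 and 27.9 CPM, and Olig1 was split, 40.8 and 0 CPM against 26.4 and 31.2 CPM. Pdgfra, the receptor that defines precursors, was at 8.31 and 0 CPM against 39.7 and 48.4 CPM. Over all 8 precursor markers the sum was 119 and 57.7 CPM in the pools against 168 and 195 CPM in bulk tissue. Without Olig1 and Pcdh15 the sum was 23.5 and 9.14 CPM in the pools against 115 and 136 CPM in bulk tissue.

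Of 11 microglia markers 8 were past the rule as lower. P2ry12, the purinergic receptor of resting microglia, was at 1.54 and 1.35 CPM against 28.99 and 26.1 CPM (log2 fold change -4.24, SE 0.60), and Cx3cr1, the fractalkine receptor, at 0.136 and 0.452 CPM against 29.9 and 33.3 CPM. The 3 others, Csf1r, C1qb and Fcrls, were at or near 0 in the pool of 30 and not in the pool of 33. Their levels there were 37.9, 34.2 and 26.3 CPM, against at most 0.0454 CPM in the pool of 30. In bulk library 1 they were at 50.9, 17.4 and 13.96 CPM. Over all 11 microglia markers the sum was 27.7 and 119.6 CPM in the pools against 336 and 364 CPM in bulk tissue. Without Csf1r, C1qb and Fcrls it was 27.6 and 21.1 CPM in the pools and 254 and 261 CPM in bulk tissue. Endothelial markers were past the rule as lower for 8 of 9 genes and mural and fibroblast markers for 9 of 9. Slco1a4, an organic anion transporter of brain endothelium, was at 0.0908 and 0.113 CPM against 61.2 and 47.6 CPM (log2 fold change -8.97, SE 0.61). Flt1, Tek and Cdh5 of endothelium and Rgs5 and Myl9 of mural cells had no count in either pool. All 5 red blood cell genes passed as lower, and since Hbb-b1 and Hbb-b2, like Hba-a1 and Hba-a2, had identical counts, these are not 5 separate measurements. Of 2 ependymal and choroid plexus genes, Kl passed as lower at 0.817 and 2.94 CPM against 11.8 and 11.7 CPM.

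Ion channels and receptors held members that went each way. Of 64 potassium channel subunits, 7 were past the rule as higher (background 3.95%) and 7 as lower (background 16.4%). Kcnj2, the inward rectifier Kir2.1, was at 249 and 269.9 CPM against 48.9 and 49.3 CPM (log2 fold change 2.40, SE 0.21), and Kcna4 (Kv1.4), a channel of the A-type current, at 112 and 149.8 CPM against 36.6 and 31.2 CPM (log2 fold change 1.95, SE 0.30). Kcnip4, Kcnb2 and Kcnv1 were also in the higher group, and the 2 pools were within 1.5-fold of each other for each of the 7. Among the lower genes, Kcnj10 (Kir4.1) of astrocytes was at 5.90 and 9.71 CPM against 156 and 162 CPM (log2 fold change -4.36, SE 0.39), and Kcnn1, a small-conductance calcium-activated channel, was at 13.4 and 24.2 CPM against 81.2 and 84.4 CPM (log2 fold change -2.14, SE 0.43). Kcnip1, an interneuron subunit, had no count in either pool, and Hcn2 was at 1.77 and 1.69 CPM against 11.7 and 11.9 CPM.

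Of 22 glutamate receptor genes 2 passed as higher, Grin2b at 1067 and 1233 CPM against 348 and 398 CPM (log2 fold change 1.63, SE 0.18) and Grin2a at 445 and 477 CPM against 164 and 175 CPM (log2 fold change 1.44, SE 0.18), the NMDA receptor subunits GluN2B and GluN2A. The obligatory subunit Grin1 was at 719.9 and 707 CPM against 356 and 390.4 CPM and the AMPA receptor subunit Gria2 at 1335 and 1600.0 CPM against 1019 and 1035 CPM, both higher in the 2 pools by less than 2-fold at the nearest libraries. Grik1, Grik4 and Grin2c passed as lower, and Grik1, a kainate receptor subunit, had no count in either pool. Of 14 GABA-A receptor subunits 2 passed as higher, among them Gabra5 at 77.1 and 56.4 CPM against 21.3 and 20.1 CPM (log2 fold change 1.69, SE 0.36), and Gabre passed as lower. Gabrq, the theta subunit, was found in the pool of 33 alone, at 47.3 CPM. Of 23 voltage-gated sodium and calcium channel genes, Cacna1e, the R-type calcium channel, passed as higher at 1380.0 and 1261 CPM against 471 and 488 CPM (log2 fold change 1.46, SE 0.15), and Scn4b and Cacna2d2 passed as lower.

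Neurofilaments and microtubule-associated proteins passed as higher for 5 of 22 genes and as lower for 0. Ina (alpha-internexin) was at 213 and 446 CPM against 44.1 and 61.4 CPM (log2 fold change 2.64, SE 0.47), Nefm at 621 and 1239 CPM against 153 and 227 CPM (log2 fold change 2.29, SE 0.44) and Nefl at 734 and 1614 CPM against 271 and 358 CPM (log2 fold change 1.90, SE 0.45). In these 3 neurofilament genes the pool of 33 was about 2-fold above the pool of 30. Nefl and Nefm were also on the pan-neuronal list. Nefh, the heavy subunit, was split, at 6.31 and 97.1 CPM against 16.02 and 19.2 CPM. Mtap1b (MAP1B), which stabilizes microtubules in growing neurites, was one of the 10 most abundant genes of the pools at 6099 and 8243 CPM against 2092 and 2398 CPM (log2 fold change 1.68, SE 0.21). Of 34 synaptic vesicle and release genes 3 passed as higher and 3 as lower. Bsn (bassoon), a large scaffold of the active zone, was at 1875 and 2066 CPM against 646 and 818 CPM (log2 fold change 1.43, SE 0.19). Rims2, another active zone protein, had the opposite order at 38.5 and 38.7 CPM against 109.7 and 118 CPM (log2 fold change -1.56, SE 0.25). Of 20 postsynaptic scaffolds, Homer1 and Ppp1r1b passed as higher and Shank3 as lower, at 48.4 and 25.97 CPM against 118 and 181 CPM (log2 fold change -2.002, SE 0.45). The bulk libraries of Shank3 were themselves more than 1.5-fold apart. Homer1 was also counted among the activity-regulated effectors.

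Of 12 heat shock and dissociation genes 2 passed as higher and 1 as lower (backgrounds 3.95% and 16.4%). Both pools were above both bulk libraries for 7 of the 12 and below for 1 (backgrounds 25.6% and 32.5%), and the median log2 ratios were 0.49 and 0.95. Hsph1, an HSP110 chaperone, was at 907 and 2033 CPM against 259 and 301 CPM (log2 fold change 2.39, SE 0.45), and Hsp90aa1, the inducible HSP90, at 1358 and 1329.5 CPM against 589 and 632 CPM (log2 fold change 1.14, SE 0.15). The inducible Hsp70 genes Hspa1a and Hspa1b, near-identical copies, were near 0 in the pool of 30 and at 39.5 and 34.1 CPM in the pool of 33. In bulk tissue, which was also treated with protease, Hspa1a was at 5.73 and 9.33 CPM. Of 21 endoplasmic reticulum genes 1 passed as higher (Calr, calreticulin, at 229 and 201 CPM against 100.2 and 99.1 CPM) and 3 as lower, close to the backgrounds, among them Pdia4, a disulfide isomerase, at 1.04 and 1.69 CPM against 21.4 and 29.3 CPM (log2 fold change -4.21, SE 0.69). The median log2 fold change of that list was 0.04. It was -0.29 by library size alone, -0.10 without the pool of 30 and 0.28 without the pool of 33.

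Against backgrounds of 25.6% above and 32.5% below, 32 of 74 oxidative phosphorylation subunits were above both bulk libraries in both pools and 3 below. The counts were 22 and 1 of 40 proteasome subunits and 12 and 3 of 18 glycolysis genes. Past the two-pool rule (backgrounds 3.95% and 16.4%) were 6 oxidative phosphorylation subunits as higher and 0 as lower, with median log2 ratios of 0.64 and 0.29. Uqcrb of complex III was at 85.2 and 58.4 CPM against 17.3 and 14.6 CPM (log2 fold change 2.17, SE 0.39) and Cox7b of complex IV at 222 and 171 CPM against 78.8 and 65.5 CPM (log2 fold change 1.45, SE 0.26). Of 40 proteasome subunits 6 passed as higher, led by Psmc2 at 149 and 230.4 CPM against 51.7 and 58.1 CPM (log2 fold change 1.79, SE 0.31), and the medians were 0.76 and 1.02. The 1 that passed as lower, Psmb11, had nearly the same values in every library as Rpl7l1, the 1 ribosomal gene that passed as lower, so both are uncertain. Of 81 cytosolic ribosomal protein genes 1 passed as higher, and the median log2 fold change was 0.19, or -0.14 by library size alone. Of 18 glycolysis genes none passed as higher and 2 as lower (median log2 ratios 0.62 and 0.48), Aldoc of astrocytes at 51.1 and 25.3 CPM against 423 and 469 CPM (log2 fold change -3.54, SE 0.43) and Slc2a1 (GLUT1) of endothelium and glia at 30.3 and 17.6 CPM against 78.03 and 89.4 CPM (log2 fold change -1.80, SE 0.41). Aldoc was also on the astrocyte list and Slc2a1 on the endothelial list. Gapdh was above bulk tissue in both pools, 3839.9 and 3624 CPM against 1479.8 and 1909.7 CPM (log2 fold change 1.14, SE 0.18).

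Of 19 genes for cholesterol synthesis and uptake 0 passed as higher and 3 as lower, near the background of 16.4% lower, with medians of -0.14 and -0.67. Idi1, an isomerase of the isoprenoid step, was at 5.04 and 2.82 CPM against 35.1 and 20.8 CPM (log2 fold change -2.82, SE 0.67). Of 15 circadian clock genes 0 passed as higher and 4 as lower: Per3 at 9.44 and 12.5 CPM against 58.7 and 54.7 CPM (log2 fold change -2.37, SE 0.40), Nr1d2 at 38.1 and 35.7 CPM against 89.8 and 87.5 CPM (log2 fold change -1.26, SE 0.27), Cry1 and Bhlhe41. Clock itself was above bulk tissue in both pools, at 349 and 245 CPM against 151 and 140.1 CPM. Of 34 chromatin and splicing factors 3 passed as higher and 2 as lower. Hnrnpa2b1, an RNA-binding protein, was at 743 and 720.5 CPM against 287 and 293 CPM (log2 fold change 1.33, SE 0.16), and Hdac5, a histone deacetylase that leaves the nucleus on activity, at 2.50 and 2.82 CPM against 37.5 and 42.3 CPM (log2 fold change -3.90, SE 0.50). Of 36 aminoacyl-tRNA synthetases 1 passed as higher and 3 as lower.

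Among 13 nuclear long non-coding RNAs 0 passed as higher and 2 as lower (backgrounds 3.95% and 16.4%). The count lower was thus near the background. Both pools were above both bulk libraries for 2 of the 13 and below for 6 (backgrounds 25.6% and 32.5%). The median log2 ratios were -0.44 and -0.55, and the genes below are single members. Malat1, a nuclear RNA of speckles and the most abundant gene of bulk tissue, was at 1933 and 6544 CPM against 24412 and 24935 CPM (log2 fold change -2.54 with a standard error of 0.63, adjusted p = 0.115). Neat1, the RNA that builds paraspeckles, was at 0 and 0.452 CPM against 14.3 and 15.6 CPM. Meg3 and Snhg11, imprinted or neuron-enriched nuclear RNAs, were at 503 and 1544 CPM against 2789 and 3277 CPM and 441 and 1258 CPM against 2124 and 2055 CPM, below both bulk libraries in both pools without passing the rule. For Malat1, Meg3 and Snhg11 the pool of 33 was about 3-fold above the pool of 30.

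**Figure D4:**
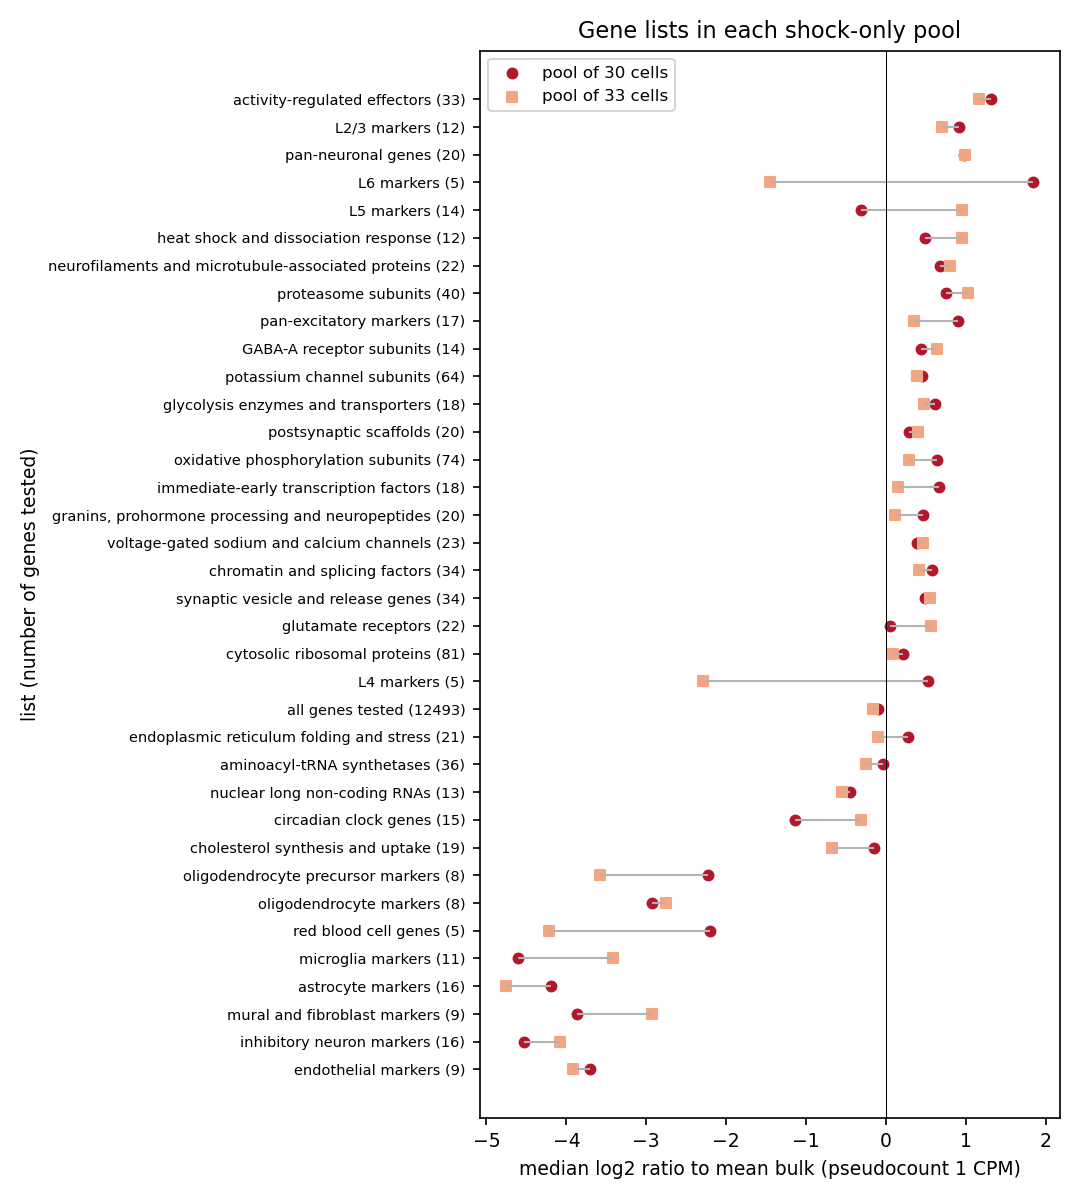
Median log2 ratio to mean bulk (pseudocount 1 CPM) of each gene list with 5 or more genes, in the pool of 30 (circles) and the pool of 33 (squares), with the number of genes tested in parentheses. Effectors lie at 1.32 and 1.16 and the non-neuronal and inhibitory lists under -2 in both pools, while the L4, L5 and L6 medians lie on opposite sides of 0.

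The 10 most abundant genes of the pools by mean CPM included Lars2, Snap25, Mtap1b, Ywhaz, Malat1, Calm2 and Nptxr. Lars2, a mitochondrial leucyl-tRNA synthetase, was at 20396 and 20089 CPM in the pools and differed between the bulk libraries, at 5487 and 12360.3 CPM. Snap25, a SNARE protein of the presynapse, was at 12779 and 11281 CPM against 5466 and 5951 CPM (log2 fold change 1.08, SE 0.13). Nptxr, the membrane receptor of pentraxins such as Nptx2, was at 3554 and 4449 CPM against 922 and 1217 CPM, and its counts were near-identical to those of the overlapping gene Npcd. In bulk tissue Malat1, Lars2, Slc1a2 and Snap25 were among the 5 most abundant genes. The 10 genes of highest bulk level with no count in either pool were Mlc1, Rgs5, Flt1, Prelp, Eps8, Cpt1a, Itpr2, Slc9a3r1, Notch1 and Fmod, with levels in bulk library 1 from 19.5 to 63.7 CPM.

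Some genes were abundant in 1 pool and at or near 0 in the other, although the bulk libraries were within 1.5-fold of each other. In the pool of 30 alone, Gm2a, the GM2 ganglioside activator, was at 72.2 CPM against 0.113 in the pool of 33, with 50.9 and 43.1 CPM in bulk tissue. Arhgap31, a GTPase-activating protein, was at 103 and 0 CPM against 31.5 and 36.96 CPM. Fibp, which binds a fibroblast growth factor, was at 86.7 and 0 CPM against 17.2 and 15.1 CPM. In these 3 genes a pool with the transcript lay above bulk tissue and a pool without it lay far below. Cox6a2, a subunit of complex IV, at 54.9 and 0.226 CPM against 1.88 and 2.40 CPM, and Car2, a carbonic anhydrase, at 54.5 and 0.226 CPM against 66.8 and 85.5 CPM, were the others of this kind.

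In the pool of 33 alone, Fosl1, a Fos family factor, was at 0 and 107 CPM against 2.51 and 2.02 CPM. Elmo3, an engulfment adaptor, was at 0 and 66.4 CPM against 3.40 and 4.41 CPM, the mitochondrial protein Smcr7 at 0.136 and 50.7 CPM against 5.82 and 4.04 CPM, the F-box protein Fbxl19 at 0.182 and 66.4 CPM against 18.1 and 26.1 CPM and the phosphatidylinositol transfer protein Pitpnc1 at 0.272 and 83.9 CPM against 60.04 and 48.1 CPM. Fosl1 (chromosome 19, 5447703 to 5455945) and Fibp (5460637 to 5465051) lie next to each other in mm9, and each was found in the opposite pool. Mean values over the 2 pools describe neither pool for genes of this kind.

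The comparison with FC asked whether the difference between pools and bulk tissue was the same after shocks alone as after paired tones and shocks. Levels here are on TMM factors over all 8 libraries. The edgeR interaction called 0 genes (0% of members; 308 at an unadjusted p under 0.05, smallest adjusted p 1.00), and DESeq2 called 10. Shock-only pools set directly against FC pools gave 0 calls in edgeR (0%; 793 at an unadjusted p under 0.05, smallest adjusted p 0.773) and 146 in DESeq2, and without the pool of 30 edgeR called 1. A low count here does not show that the conditions act alike: the median standard error of an interaction was 1.12 on the log2 scale. Of the 494 genes past the two-pool rule as higher, 303 (61.3%) had all 3 FC pools above the FC bulk library, as did 23.2% of all members. Of the 2045 past it as lower, 1356 (66.3%) had all 3 FC pools below, as did 29.0% of all members.

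Among genes of the lowest p between the 2 kinds of pool was Camk1g. It had 114 and 194 CPM in the shock-only pools and 16.2 and 14.4 CPM in the shock-only bulk libraries, but 12.4, 30.03 and 9.73 CPM in the FC pools of 39, 40 and 23 cells and 17.4 CPM in FC bulk tissue. Zbtb7a, a zinc-finger repressor, had 402 and 470.0 CPM in the shock-only pools and 126 and 141 CPM in the shock-only bulk libraries, and 147, 160.1 and 214 CPM in the FC pools of 39, 40 and 23 cells and 132 CPM in FC bulk tissue. In both genes every shock-only pool was above every FC pool. Pdia4 had the opposite order, with 1.06 and 1.58 CPM in the shock-only pools and 21.6 and 29.6 CPM in the shock-only bulk libraries and 87.9, 24.4 and 23.7 CPM in the FC pools of 39, 40 and 23 cells and 26.6 CPM in FC bulk tissue. Thoc5, a subunit of the mRNA export complex THO, had 0.322 and 0.106 CPM in the shock-only pools and 14.4 and 14.04 CPM in the shock-only bulk libraries and 11.6, 14.6 and 76.5 CPM in the FC pools of 39, 40 and 23 cells and 14.4 CPM in FC bulk tissue, and 1 FC pool stood apart from the other 2 in each of these genes.

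Pcp4, among the leading genes above, had 205 and 93.5 CPM in the shock-only pools and 17.5 and 21.4 CPM in the shock-only bulk libraries, and 18.2, 0.0799 and 2.90 CPM in the FC pools of 39, 40 and 23 cells and 36.7 CPM in FC bulk tissue, so all FC pools were below their bulk library. Gins4 had 110.1 and 108 CPM in the shock-only pools and 12.6 and 15.4 CPM in the shock-only bulk libraries, and 8.67, 12.9 and 0.194 CPM in the FC pools of 39, 40 and 23 cells and 8.90 CPM in FC bulk tissue. The FC pools of 39 and 40 cells were thus close to bulk tissue for Gins4. Kit, a receptor tyrosine kinase, was lower in the pools of both conditions, with 0.230 and 0.106 CPM in the shock-only pools and 41.9 and 51.4 CPM in the shock-only bulk libraries and 7.59, 10.5 and 6.83 CPM in the FC pools of 39, 40 and 23 cells and 44.00 CPM in FC bulk tissue. Lrch4, whose counts resemble those of Gm20605 so that both are uncertain, was near 0 in the shock-only pools and near bulk tissue in the FC pools, with 0.0919 and 0.106 CPM in the shock-only pools and 13.5 and 14.9 CPM in the shock-only bulk libraries and 11.3, 8.31 and 12.6 CPM in the FC pools of 39, 40 and 23 cells and 13.9 CPM in FC bulk tissue. Inhba and Nptx2 were higher in pools of both conditions, with 168, 264 and 196 CPM in the FC pools of 39, 40 and 23 cells and 20.3 CPM in FC bulk tissue for Inhba and 94.6, 128 and 165 CPM in the FC pools of 39, 40 and 23 cells and 7.69 CPM in FC bulk tissue for Nptx2.

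**Figure D5:**
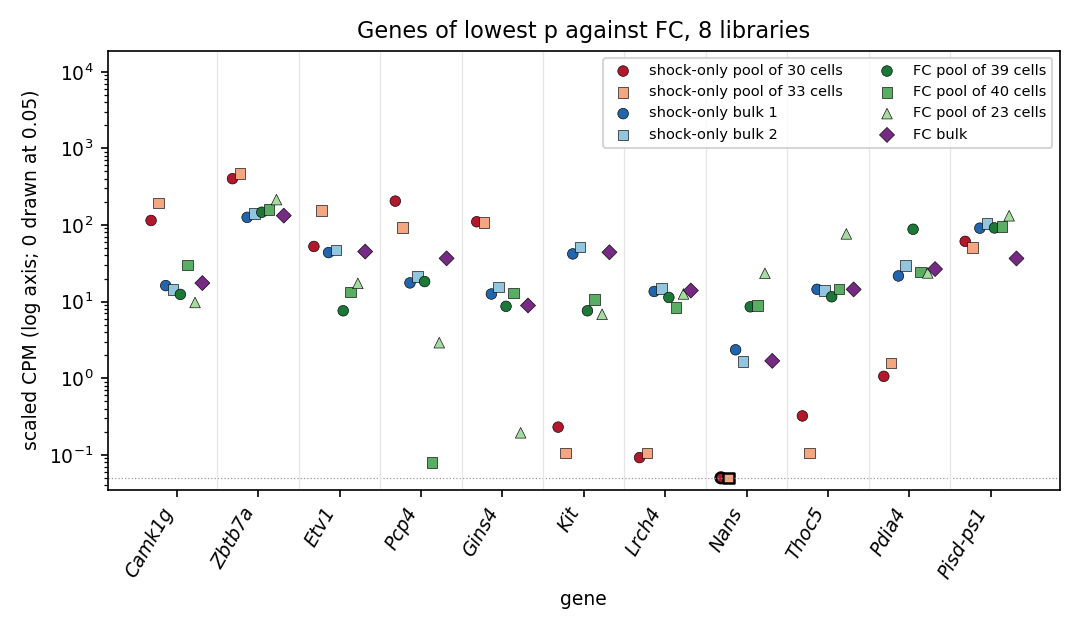
Scaled CPM (log axis, TMM factors over 8 libraries) of 11 genes with low p against FC or opposite order in the 2 conditions, in shock-only pools and bulk tissue (red, orange, blue) and FC pools and bulk tissue (green, purple). Camk1g is at 114 and 194 CPM in the shock-only pools and between 9.73 and 30.03 CPM in the FC pools.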

How the data were processed

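RNA of sorted pools and of bulk tissue was amplified (Ovation RNA-Seq System V2) and sequenced by the authors on a HiSeq2000. Per the paper's methods, reads were aligned with RUM to mm9, and uniquely aligned reads were assigned to 1 RefSeq transcript variant per gene. The authors deposited these as raw counts per gene beside CPM, fold changes and p-values of their own comparisons. Only the counts were used here. Counting by strand was not stated, so overlapping and antisense genes cannot be told apart.

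Genes with a summed CPM of at least 20 over the 8 libraries were kept. Counts of the 4 shock-only libraries were scaled by TMM and tested with the quasi-likelihood test of edgeR 4.0.16 in R 4.3.3, with Benjamini-Hochberg adjustment over all 12493 genes, at an adjusted p of 0.05 and a log2 fold change of 1. Standard errors, also those of interactions, were derived from the edgeR result for each gene. Each is the size of error that would turn the log2 fold change into the observed test statistic. They were not estimated separately from the libraries and are no basis for confidence intervals. DESeq2 1.42.0, limma 3.58.1 (voom), other scalings, other filters and leaving out each library were alternatives. The edgeR fit of 2 against 2 libraries was tested on simulated counts with the same spread in both groups. The pools and bulk libraries here differ in spread, so that test does not cover this setting. The two-pool rule was not simulated. Positions are from GENCODE M1 (mm9), matched by symbol for 12053 genes. Lists comprised 31 written out and 5 chosen by symbol. The rule for named genes took, among others, the 12 genes of largest fold each way past the two-pool rule with a mean of at least 50 CPM, for every list at most 4 genes with the smallest p plus at most 2 further genes by size of change, and the 5 genes of lowest p against FC. Where the rule asked for called genes, genes past the two-pool rule were taken, since the main test called 0. Further genes in the text were picked with their values in view. The members and lists were chosen with earlier results of these data known. Total counts ranged from 7110598 to 24151755. Some genes that the rule names are not reported here.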

Additional observations from a re-analysis of the deposited data

Results flagged for a closer look

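For 4 named genes the order of pools and bulk tissue was opposite after shocks alone and after FC in every library: each shock-only pool lay on one side of both shock-only bulk libraries, and each FC pool lay on the other side of the single FC bulk library. The difference of the 2 log2 fold changes was tested in edgeR and called for 0 of 12493 genes, so none of these is shown to differ. Such an opposite order was present for 422 of the 12493 genes.

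Pcp4, the calmodulin-binding peptide of L5 neurons, had a difference of 5.30 on the log2 scale (standard error 2.07). It was at 205 and 93.5 CPM in the shock-only pools and 17.5 and 21.4 CPM in the shock-only bulk libraries, and at 18.2, 0.0799 and 2.90 CPM in the FC pools of 39, 40 and 23 cells and 36.7 CPM in FC bulk tissue. Etv1, another L5 gene, had a difference of 3.01 (standard error 0.90). It was at 52.4 and 155 CPM in the shock-only pools and 43.6 and 47.3 CPM in the shock-only bulk libraries, with 7.59, 13.3 and 17.3 CPM in the FC pools of 39, 40 and 23 cells and 44.96 CPM in FC bulk tissue.

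Nans, a synthase of sialic acid, had a difference of -10.78 (standard error 2.52), of which the size depends on the prior count because both shock-only pools were at 0. Its level was 2.35 and 1.66 CPM in shock-only bulk tissue, with 8.55, 8.95 and 23.4 CPM in the FC pools of 39, 40 and 23 cells and 1.68 CPM in FC bulk tissue. Pisd-ps1, a pseudogene whose counts are nearly those of Pisd-ps3, had a difference of -2.34 (standard error 0.54). It was at 61.1 and 50.8 CPM in the shock-only pools and 90.8 and 104 CPM in the shock-only bulk libraries, with 91.4, 95.5 and 132 CPM in the FC pools of 39, 40 and 23 cells and 36.5 CPM in FC bulk tissue.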

How the results depend on the processing

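The count of calls in the 4 libraries depended on the test. DESeq2 gave 751 higher and 1025 lower, the edgeR exact test 608 and 1032, voom 107 and 488 and the fit to all 8 libraries 198 and 269, against 0 and 0. Library size alone and a filter of 20 CPM over the 4 libraries each gave 4 lower. DESeq2 size factors in edgeR and no filter gave 0 each way. Leaving out 1 library gave 13 to 2195 higher and 72 to 3996 lower. The two-pool rule held for 227 higher with library size alone, 1331 with a 1.5-fold gap and 38 (1075 lower) with a 4-fold gap. Leaving out 1 library gave 632 to 1898 higher and 2192 to 3781 lower. Between the pools, r was 0.439 and 0.455 with pseudocounts of 0.1 and 5 CPM, 0.601 for genes of at least 20 CPM in bulk tissue and 0.424 with a different bulk library for each pool. Against FC, DESeq2 called 10 genes in the interaction and 146 between pools. Leaving out 1 library gave 0 to 1 calls between pools. None of 107 genes fitted one by one reversed under the alternatives that gave it a value (1 gene had none under 20 CPM over the 4 libraries), and 99 were called under DESeq2, 66 in the fit to 8 libraries, 48 under voom and none under DESeq2 size factors. Many of the 107 had both pools on the same side of both bulk libraries, so leaving out 1 library could not reverse them. Their lack of reversal is therefore no measure of stability for other genes. Fos and Npas4, for example, lay on different sides of bulk tissue in the pools. List medians under library size alone were added after seeing the data. No paired analysis was possible because the labels give no replicate numbers that pair pools with bulk libraries. Each side had 2 libraries, and most genes under 20 CPM in bulk tissue were more than 2-fold apart between the pools.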

Other observations

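A pair of abundant glial genes, chosen after their values were seen, differed between the pools while both stayed below bulk tissue. Ptgds, prostaglandin D synthase of meninges and oligodendrocytes, was at 0.409 and 23.3 CPM against 931 and 1097 CPM. Ndrg2, an astrocyte gene, was at 96.97 and 2.14 CPM against 628 and 691 CPM. The pool of 33 was the higher one for Ptgds and the pool of 30 for Ndrg2.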
